A study of Mus musculus with 6 samples.

Results

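FXR ChIP-seq peaks assigned to 9 genes of hepatic insulin signalling were examined in mouse liver with and without hepatocyte Bcl6. The genes were Insr, Irs1, Irs2, Akt2, Foxo1, Foxo3, Pik3r1, Grb10 and Trib1, and a peak was a member when the authors' annotation gave it one of these names as the nearest gene. Members made up 55 of 20040 peaks in WT and 39 of 12495 peaks in LKO. WT livers came from male C57BL/6 mice with the genotype Bcl6 fl/fl, whose Bcl6 alleles carry loxP sites and remain intact. LKO livers came from male C57BL/6 mice with the genotype Alb-cre, Bcl6 fl/fl, in which the albumin promoter drives Cre in hepatocytes, so that other liver cells keep Bcl6. Both genotypes thus carried the floxed alleles, the WT mice lacked Cre, and their ages were not given in the sources used here. The study's methods describe its animals in general as fed freely or briefly fasted, without saying which applied to the ChIP livers. Per genotype there were 2 ChIP libraries for FXR and 1 library of input chromatin, sequenced without immunoprecipitation. The tables measure FXR binding and give no expression value for Bcl6 or any other gene, so the deletion itself was not checked here.

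Insulin binds the receptor encoded by Insr, which phosphorylates the adaptor proteins IRS1 and IRS2. These recruit phosphoinositide 3-kinase through its regulatory subunit, encoded by Pik3r1, and the lipid made by that kinase leads to activation of AKT2, the main AKT isoform of insulin action in liver. AKT phosphorylates the transcription factors FOXO1 and FOXO3, which then leave the nucleus and no longer drive genes of glucose production. GRB10 binds and restrains the activated receptor, and TRIB1 is a pseudokinase that brings substrates such as C/EBP alpha to the ubiquitin ligase COP1. FXR is a bile acid receptor of hepatocytes and the intestine that binds inverted repeats of a hexamer with a 1-base spacer (IR1), and BCL6 is a transcriptional repressor.

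The depth of the ChIP libraries ranged from 2883717 tags in WT replicate 2 to 22637613 tags in LKO replicate 2. The authors pooled the ChIP libraries of a genotype before calling peaks, so the numbers of peaks have no replicate spread. At least 10 tags were estimated in both replicates for 20 of the 55 WT member peaks and for all 39 LKO member peaks, because of the low depth of WT replicate 2. Over the whole lists, 8864 of 20040 WT peaks and 12445 of 12495 LKO peaks reached this number. Hepatocyte marker genes had peaks at 5 of 5 loci in both lists, with 29 WT and 16 LKO peaks in all. Of 4 markers of other liver cells, only Stab2, a gene of sinusoidal endothelium, had peaks, 3 in WT and 0 in LKO, while Clec4f, Krt19 and Dcn had none in either list.

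Sequences are shown because the IR1 is the motif that FXR is known to bind. The printed sites are near matches with 1 or 2 mismatches, and binding at these letters was not tested. The motif searched was AGGTCANTGACCT, which reads the same on both strands, with at most 2 mismatches in the 12 scored bases and within 100 bp of the peak centre. It was present in 7 of 55 WT member peaks (12.7%, 95% Wilson interval 6.30 to 24.0%) and in 5 of 39 LKO member peaks (12.8%, 5.60 to 26.7%). Among all peaks the motif was found in 11.8% in WT and in 16.2% in LKO, so both member shares held the share of all peaks within their intervals. The 5 LKO peaks with an IR1 were each shared with WT, 1 at each of Insr, Irs1, Foxo3, Grb10 and Trib1, and the other 2 WT peaks were WT-only peaks of Pik3r1.

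The peak with the fewest mismatches of each of the 5 genes with a shared IR1 peak is given on the plus strand of mm10, as read from the GRCm38.p6 assembly, with the IR1 in capitals. Substitutions give the motif's base, its position from 1 at the 5′ end of the site, and the base found.
Irs1, intron 1, chr1:82247293-82247503, substitution T4A: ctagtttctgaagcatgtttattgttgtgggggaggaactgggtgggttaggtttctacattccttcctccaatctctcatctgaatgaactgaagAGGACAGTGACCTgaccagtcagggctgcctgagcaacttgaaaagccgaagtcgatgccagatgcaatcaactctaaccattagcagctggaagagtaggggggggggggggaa
Insr, intron 2, chr8:3222081-3222291, substitutions T4A and C11A: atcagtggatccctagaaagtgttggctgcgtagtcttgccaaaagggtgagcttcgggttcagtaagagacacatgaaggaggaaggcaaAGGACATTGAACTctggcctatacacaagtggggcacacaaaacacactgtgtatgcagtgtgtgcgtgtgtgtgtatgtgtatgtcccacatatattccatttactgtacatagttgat
Foxo3, intron 2, chr10:42270771-42270981, substitutions C12A and T13C: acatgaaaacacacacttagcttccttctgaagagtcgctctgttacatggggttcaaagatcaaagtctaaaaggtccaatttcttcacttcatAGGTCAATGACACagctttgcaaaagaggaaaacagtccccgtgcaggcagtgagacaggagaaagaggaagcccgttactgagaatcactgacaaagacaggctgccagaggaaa
Grb10, intron 4, chr11:11965846-11966056, substitutions A1G and T4A: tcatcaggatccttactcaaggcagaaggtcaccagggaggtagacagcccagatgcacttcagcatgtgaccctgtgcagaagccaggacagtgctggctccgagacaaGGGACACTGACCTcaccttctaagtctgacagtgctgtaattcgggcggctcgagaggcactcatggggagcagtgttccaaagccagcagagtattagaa
Trib1, intergenic, chr15:59674015-59674225, substitutions G2A and A10G: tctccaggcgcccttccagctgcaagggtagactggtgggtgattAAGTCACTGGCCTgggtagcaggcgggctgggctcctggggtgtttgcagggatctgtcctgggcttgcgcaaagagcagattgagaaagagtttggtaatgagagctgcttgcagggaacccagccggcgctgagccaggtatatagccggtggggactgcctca

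The Irs1 site carried 1 mismatch and lay 3 bp from the centre of a peak that both genotypes had. The Foxo3 and Grb10 sites lay 4 bp and 11 bp from the centres of the strongest WT peaks of these genes. The Insr site lay 8 bp and the Trib1 site 54 bp from the peak centre. The input value of that Trib1 peak was 2.27 in WT, above the 95th percentile of the WT list (1.85). Of the strongest WT peaks of the 9 genes, 3 held an IR1 within 2 mismatches, at Irs1, Foxo3 and Grb10, and 6 did not, among them the highest 2, at Trib1 and Pik3r1.

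The promoter peak of Akt2 is shown as the 1 promoter peak of these genes that was listed in WT only. It held none of the 5 exact motifs described further on.
Akt2, WT, chr7:27591451-27591661: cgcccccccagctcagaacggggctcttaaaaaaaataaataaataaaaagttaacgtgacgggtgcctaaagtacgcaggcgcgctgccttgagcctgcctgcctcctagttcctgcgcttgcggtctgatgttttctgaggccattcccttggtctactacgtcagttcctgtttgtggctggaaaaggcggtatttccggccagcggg

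Of the WT member peaks, 31 of 55 overlapped an LKO peak by 1 bp or more (56.4%, 43.3 to 68.6%), against 49.5% of all WT peaks. Of the LKO member peaks, 31 of 39 overlapped a WT peak (79.5%, 64.5 to 89.2%), against 79.4% of all LKO peaks. Each overlap joined 1 WT and 1 LKO peak, both assigned to the same gene. The member shares therefore stood near those of the whole lists. When only the strongest peaks were kept so that both lists had the same length, the member shares were 86.7% in WT (26 of 30) and 66.7% in LKO (26 of 39), against 68.3% of all peaks in either list.

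Foxo3 and Pik3r1 carried the most peaks. Foxo3 had 14 WT and 9 LKO peaks, 8 of them shared, and only 15 of the 9025 genes with a WT peak had more. Pik3r1 had 13 WT and 7 LKO peaks with 6 shared, and 26 genes had more WT peaks. The median gene with a peak had 1 in either list. Trib1 was the 1 member with more LKO than WT peaks, 8 against 7, with 6 shared. Irs2 had 6 WT and 5 LKO peaks with 4 shared, Insr had 6 and 4 with 3 shared, and both peaks of Foxo1 were shared. Grb10 had 3 WT peaks and 1 LKO peak with 1 shared, Irs1 had 2 and 1 with 1 shared, and Akt2 had 2 in each list with 0 shared.

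**Figure D1:**
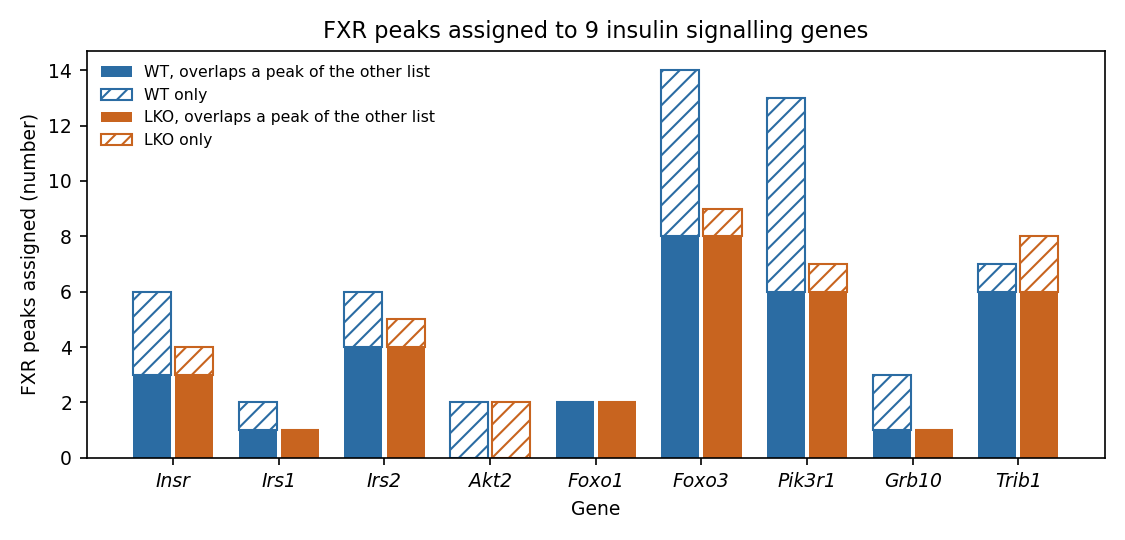
Number of FXR peaks assigned to each gene (vertical axis) by genotype, with WT in blue and LKO in orange; filled parts overlap a peak of the other list and hatched parts do not. Foxo3 reaches 14 WT and 9 LKO peaks, Trib1 has 7 and 8, and the 2 WT and 2 LKO peaks of Akt2 are all unshared.

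Members lay mostly in introns. Introns held 60.0% of WT member peaks (46.8 to 71.9%) and 66.7% of LKO member peaks (51.0 to 79.4%), against 46.5% and 47.4% of all peaks. Foxo3 alone held 13 of the 33 intron peaks of members in WT and 8 of the 26 in LKO. The shares thus rest in large part on 1 gene. Promoters held 2 of 55 WT member peaks (3.64%, 1.00 to 12.3%) and 3 of 39 in LKO (7.69%, 2.65 to 20.3%), against 11.4% and 11.3% of all peaks. More than 50 kb lay between the TSS and 24 of the 55 WT member peaks (43.6%, 31.4 to 56.7%), against 21.2% of all WT peaks. In LKO it was 14 of 39 (35.9%, 22.7 to 51.6%), against 21.3%. The centre of 33 WT and 23 LKO member peaks lay between the ends of the assigned gene. A nearest-gene name does not show which gene a site acts on, and this holds for the Irs2 and Trib1 peaks that lie in other genes.

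**Figure D2:**
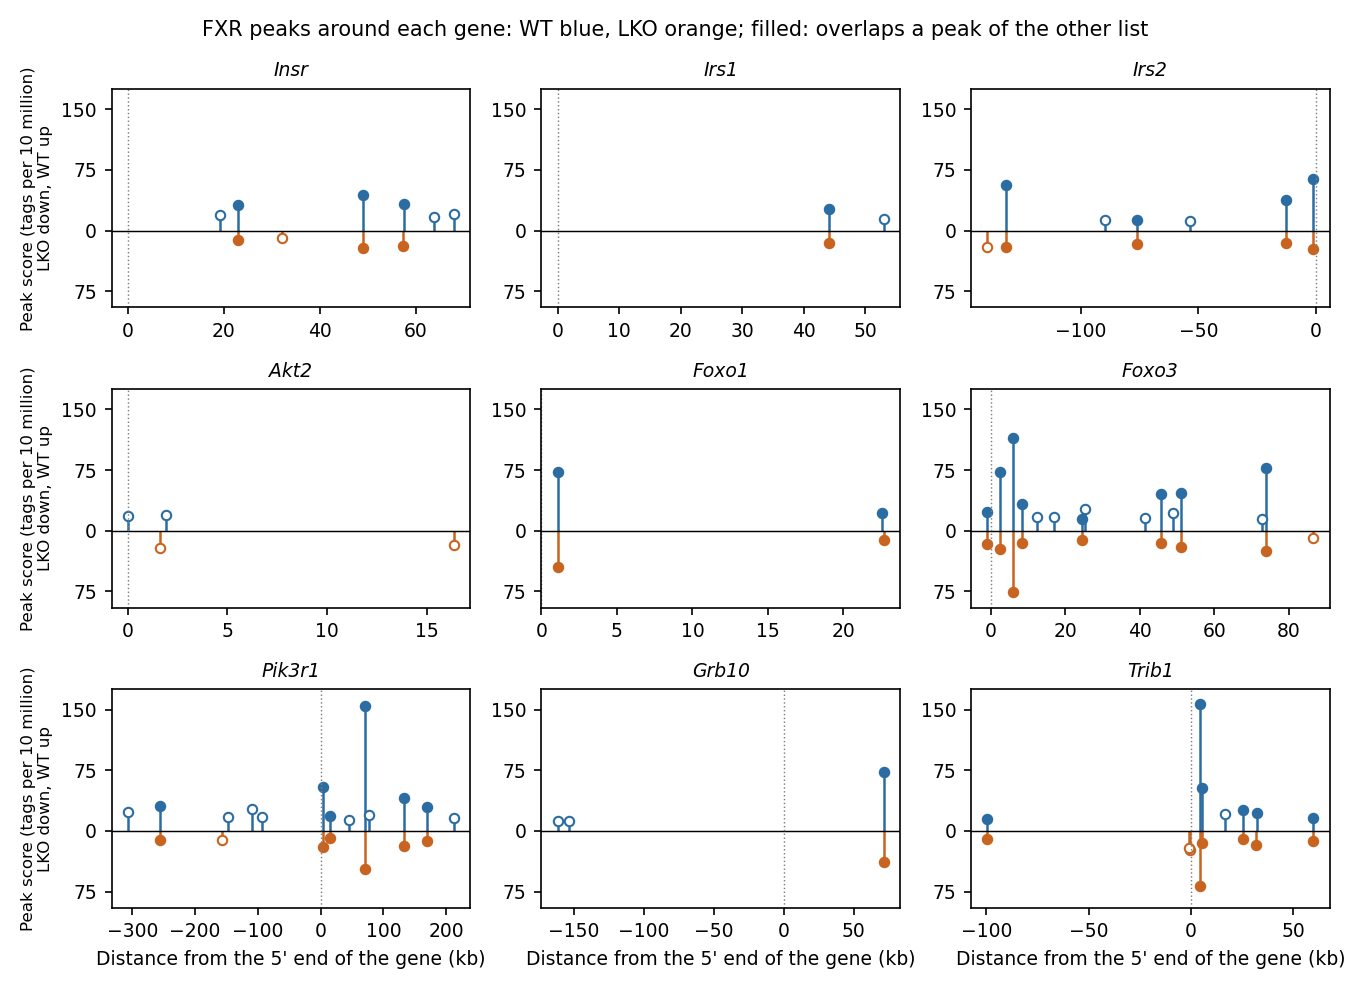
Peak score, the tags of the pooled ChIP libraries per 10000000 (vertical axis, WT upward in blue and LKO downward in orange), against distance of the peak centre from the 5′ end of the RefSeq gene in kb; filled circles overlap a peak of the other list and open circles do not. The tallest stems are Trib1 at a WT score of 157.5 and Pik3r1 at 154.3, and the unshared peaks have short stems, with scores of at most 27.4 in WT.

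Levels are given below as relative levels, the deposited log2 value of a peak minus that library's median over the 9918 shared peaks. The tables of the genotypes were normalized separately, so differences between LKO and WT are descriptions with no test, and each mean is over 2 libraries. The strongest WT peak of a gene was chosen by its WT level. That choice favours LKO lower at the peak, so no conclusion is drawn from the direction there. A pair was called without overlap when both LKO values lay on the same side of both WT values. Over all 9918 pairs, 25.2% were lower and 29.8% were higher in LKO without overlap. The counts by gene below are to be read beside these shares and were not tested.

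At Insr, all shared binding lay in intron 2. The strongest WT peak (chr8:3230543-3230753) stood at 0.11 and 0.60 in the WT replicates and at 0.18 and -0.13 in the LKO replicates. The groups overlapped, and the difference of -0.33 compared with a pooled SD of 0.29. The pair at 22930 bp from the TSS was lower in LKO without overlap, by -0.49, while the IR1 peak at 57431 bp was higher without overlap, by 0.36. The 3 WT-only peaks, 1 of them in exon 3, had scores of 17.3 to 20.5. An LKO-only peak in intron 2 (chr8:3247338-3247542) stood at -0.98 and -1.15, near the bottom of the LKO list at percentile 8.77 of strength.

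At Irs1, the strongest WT peak was the one with the IR1 in intron 1 shown above, 44041 bp from the TSS. It stood at -0.47 and -0.91 in WT and at -0.21 and -0.55 in LKO. The values overlapped, and all 4 values were below the shared-peak median. The second WT peak, 52990 bp from the TSS, had a score of 14.2 and no LKO peak within 8746 bp.

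At Irs2, 3 of the 4 shared pairs were lower in LKO without overlap and 1 was higher. The strongest WT peak lay 132343 bp upstream in intergenic sequence (chr8:11140668-11140878) and stood at 0.51 and 0.90 in WT and at 0.09 and 0.19 in LKO, a difference of -0.57. The peaks at 1394 bp and 12958 bp upstream lay in intron 1 of a non-coding transcript, NR_046017, and differed by -0.52 and -0.36. The input value of the nearer one was 3.18 in WT, above the 95th percentile of the WT list (1.85).

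The pair 76655 bp upstream of Irs2 (chr8:11084980-11085190) had the largest rise of all member pairs. It stood at -1.71 and -1.24 in WT and at -0.0016 and -0.47 in LKO, so that LKO exceeded WT by 1.24 with a pooled SD of 0.33. Its input value was -0.54 in WT and 2.43 in LKO, where the 95th percentile of the list was 2.49, and the part of the input in the difference was not tested. An LKO-only peak 140552 bp upstream (chr8:11148880-11149084) stood at 0.24 and 0.03, and the nearest WT peak was the strongest Irs2 peak, 8001 bp away.

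Pik3r1 held the second strongest WT member peak, in intron 7 and 70013 bp downstream of the gene's 5′ end (chr13:101698099-101698309). The authors' annotation placed it 5574 bp upstream of an internal start site. It stood at 2.05 and 1.97 in WT and at 1.27 and 1.39 in LKO. Both LKO values were lower, and the difference of -0.68 was larger than the pooled SD of 0.073. The pair 3880 bp downstream of the TSS and the pair 255615 bp upstream were also lower without overlap, by -0.33 and -0.55. The values of the other 3 pairs overlapped.

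The 7 WT-only peaks of Pik3r1 included the strongest WT-only member peak (chr13:101877179-101877389), which stood at -0.60 and 0.22, at percentile 67.4 of the WT list. No LKO peak lay within 47377 bp of it. An LKO-only peak 156652 bp upstream (chr13:101924767-101924971) stood at -0.90 and -0.62, and the nearest WT peak was 8260 bp away.

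Akt2 was the 1 member with no shared peak, but 2 of its peaks were near neighbours. A WT peak in intron 1 (chr7:27593353-27593563), the strongest of the gene, stood at -0.99 and -1.13. An LKO peak in the same intron (chr7:27593062-27593266) stood at 0.34 and -0.03 and lay 86 bp from it, so that the pair counted as shared when a gap of up to 500 bp was allowed. The LKO peak had an input value of 2.45 and the WT peak one of 1.03. The WT promoter peak, 4 bp from the TSS, stood at -1.26 and -1.21. A second LKO-only peak (chr7:27607823-27608027), at 16373 bp from the 5′ end of the gene, stood at -0.13 and -0.44. The authors' annotation placed it 589 bp from an internal start site. Each Akt2 peak was thus listed in 1 genotype, and the tables hold no value for a site that was not listed.

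At Foxo1, 1 of the 2 pairs was higher in LKO without overlap. The strongest WT peak lay in exon 1 (chr3:52269303-52269513), 1071 bp from the TSS, and stood at 0.94 and 1.03 in WT and at 1.28 and 1.16 in LKO. The LKO values lay above both WT values, by 0.23 against a pooled SD of 0.076. The pair in intron 1, 22544 bp from the TSS, differed by 0.23 with overlapping values.

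Foxo3 held pairs that moved in both directions, 3 lower and 3 higher in LKO without overlap, with 2 pairs that overlapped. The strongest WT peak, the IR1 peak in intron 2 shown above and 5866 bp from the TSS, stood at 1.65 and 1.42 in WT and at 2.20 and 1.85 in LKO. It was higher in both LKO libraries, by 0.49 against a pooled SD of 0.21, and was the strongest member peak of the LKO list by score, at 75.1. The promoter peak (chr10:42277556-42277766), 919 bp upstream of the TSS, stood at -0.69 and -0.73 in WT and at -0.05 and -0.25 in LKO, also higher in both. Its input value was 1.78 in WT, near the 95th percentile of 1.85, and -0.059 in LKO.

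The largest Foxo3 rise was at a weak WT peak in intron 2 (chr10:42252075-42252285), which stood at -1.41 and -2.43 in WT and at -0.48 and -0.98 in LKO. The difference was 1.19, and the WT replicate 2 value rested on an estimated 2.58 tags. A stronger peak in the same intron (chr10:42274263-42274473), 2374 bp from the TSS, stood at 0.94 and 0.83 in WT and at -0.38 and 0.66 in LKO. The LKO replicates there were far apart, and the difference was -0.74 against a pooled SD of 0.53. The peak 73926 bp from the TSS (chr10:42202711-42202921) stood at 1.03 and 1.14 in WT and at 0.03 and 0.73 in LKO, a difference of -0.70. Its input value was 1.83 in WT, near the 95th percentile of 1.85, and 0.023 in LKO. The part of the input in this difference was not tested.

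The 6 WT-only peaks of Foxo3 had scores of 15.1 to 27.4, and the nearest to an LKO peak was 467 bp away. The LKO-only peak in intron 3 (chr10:42190015-42190219) stood at -1.19 and -1.15, at percentile 4.35 of the LKO list. Foxo3 also held 4 of the 6 WT member peaks with an HNF4 match, and all 4 were shared. Over all WT peaks, an HNF4 match was found in 7.05% of shared and 8.42% of WT-only peaks. This split was not tested.

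At Grb10, the shared IR1 peak in intron 4 stood at 0.83 and 1.21 in WT and at 0.87 and 1.18 in LKO. The difference was 0.0077 against a pooled SD of 0.25, the smallest of the 31 member pairs. The LKO input value at this peak was 3.37 (the LKO list's 95th percentile was 2.49), and the WT input value was 1.13. The 2 WT-only peaks lay 153266 bp and 161666 bp upstream, with scores of 12.3 and 12.8.

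Trib1 held the strongest member peak of the WT list, in intron 2 and 4299 bp from the TSS (chr15:59652848-59653058), at percentile 97.5 of strength. It stood at 2.02 and 2.20 in WT and at 1.84 and 1.93 in LKO. The values did not overlap, and LKO was lower by -0.22. A second peak of intron 2 (chr15:59654035-59654245), 5486 bp from the TSS, stood at 0.50 and 0.46 in WT and at -0.63 and -0.0025 in LKO, the largest fall of all member pairs, at -0.79. Its input values were 2.29 in WT, above the 95th percentile of 1.85, and 2.43 in LKO.

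At 59942 bp downstream of the Trib1 TSS (chr15:59708491-59708701), an intergenic pair stood at -1.28 and -2.01 in WT and at -0.73 and -0.79 in LKO. LKO was higher there by 0.89. The pair 99560 bp upstream lay in intron 4 of the transcript NM_026746, which belongs to another gene, and its values overlapped.

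Both promoter peaks of Trib1 were LKO-only. The nearer one, 182 bp upstream, stood at 0.32 and 0.28, at percentile 69.5 of the LKO list, with an input value of 2.97, above the 95th percentile of 2.49. The other, 678 bp upstream, stood at 0.30 and 0.10, at percentile 66.1, with an input value of -0.0045. The nearest WT peak was the strong one of intron 2, 4273 bp and 4769 bp away. The part of the input signal in the first promoter peak was not tested.

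**Figure D3:**
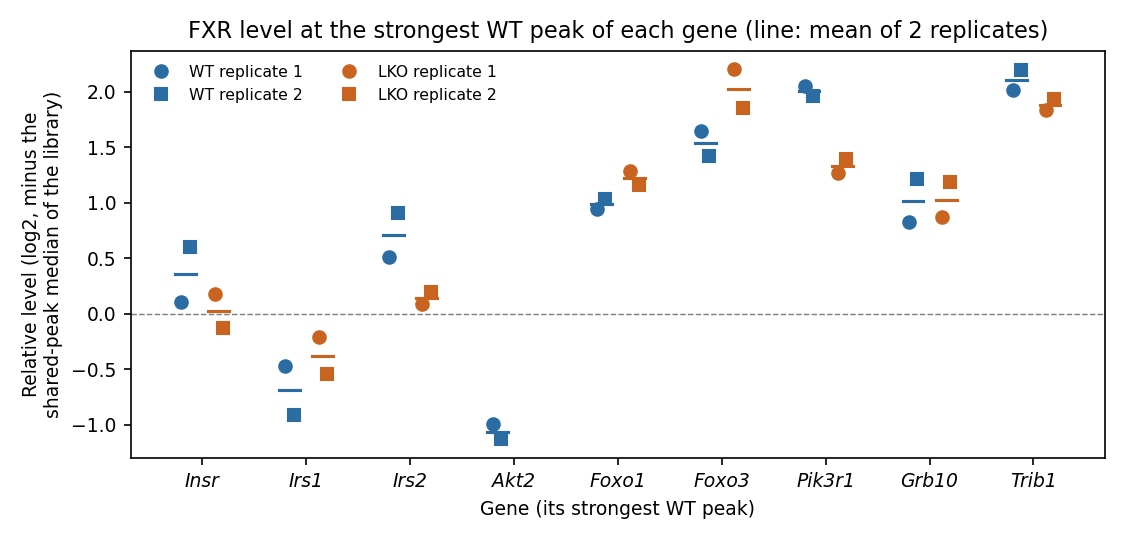
Relative level in log2 (vertical axis, 0 is that library's median over shared peaks) at the strongest WT peak of each gene and at the LKO peak that overlaps it; circles are replicate 1, squares are replicate 2, lines are means of 2 libraries, WT is blue and LKO orange. Pik3r1, Irs2 and Trib1 lie lower in both LKO libraries, Foxo1 and Foxo3 lie higher in both, and Akt2 has no overlapping LKO peak. The peaks were chosen by their WT level, which favours LKO lower.

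Over the 31 member pairs, the median difference was -0.17, with a range of -0.79 to 1.24. Over all 9918 pairs it was 0.026. The size depended on the scale: without centring, on the deposited values, it was -0.50 in members and -0.30 in all pairs, and scaled to library totals it was -1.32 and -1.12. With at least 10 estimated tags in all 4 ChIP libraries it was -0.36 over 19 member pairs and -0.12 over all such pairs. That limit removed member pairs through low WT values alone, which favours pairs with LKO lower. LKO was lower without overlap in 13 member pairs (41.9%) and in 25.2% of all pairs. LKO was higher without overlap in 7 member pairs (22.6%) and in 29.8% of all pairs. These counts were not tested. The median over the member pairs was -0.08 and -0.33 in the WT libraries and -0.20 and -0.25 in the LKO libraries, so the libraries of the genotypes overlapped.

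The following counts were added after the data were seen. Without WT replicate 2, the library of low depth, 16 of 31 member pairs were lower and 10 higher, against 35.3% and 41.1% of all pairs. Among the 19 member pairs with at least 10 estimated tags in all 4 ChIP libraries, 12 were lower (63.2%) and 2 were higher (10.5%), against 34.4% and 20.8% of the 6699 such pairs in all. All 39 LKO member peaks met this limit, so it removed member pairs through low WT values alone. A limit on WT values favours pairs with LKO lower, so no conclusion is drawn from these counts. The 3 largest rises, at Irs2, Foxo3 and Trib1, were all at peaks below 10 estimated tags in WT replicate 2. By the peak score, which is scaled to depth but not centred on the shared peaks, LKO was lower in 30 of the 31 member pairs (96.8%) and in 95.7% of all pairs, with a median log2 ratio of -1.15 in members and -0.98 in all.

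**Figure D4:**
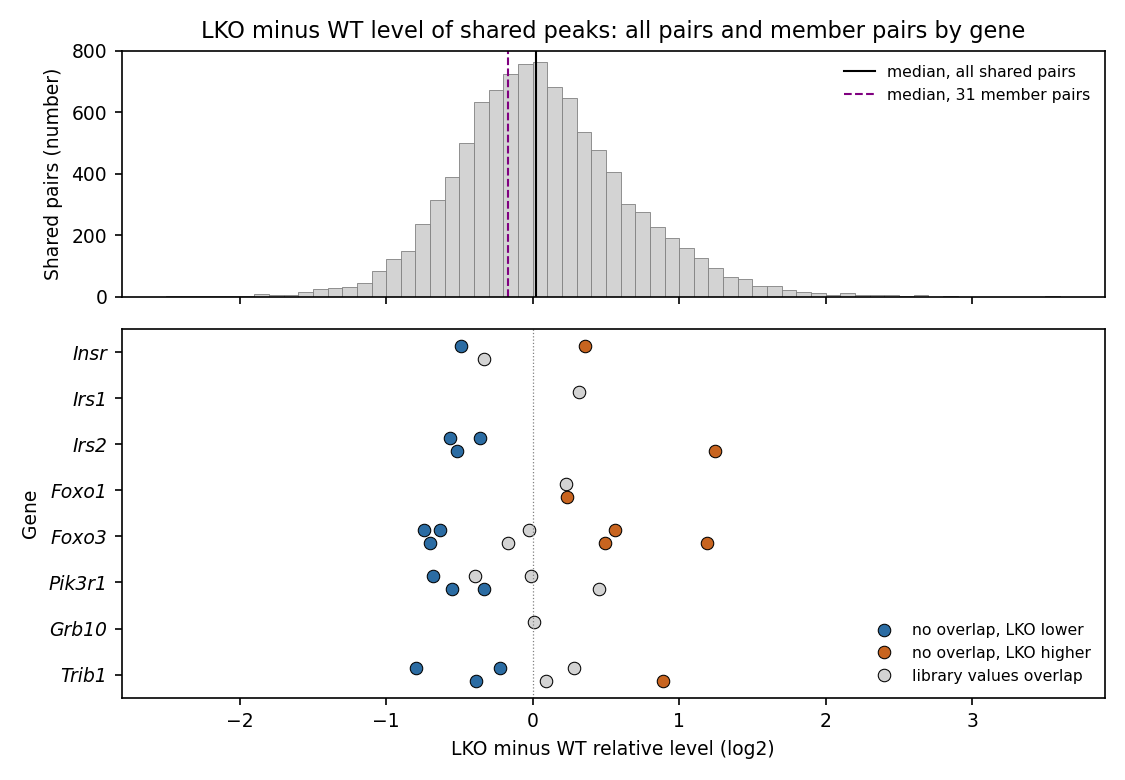
LKO minus WT relative level in log2 (horizontal axis) for all 9918 shared pairs as a histogram (top, number of pairs) and for the 31 member pairs by gene (bottom, 1 point a pair, offset vertically so that points can be told apart); colours give pairs without overlap. The medians are 0.026 for all pairs and -0.17 for member pairs, and Foxo3, Irs2, Insr and Trib1 have coloured points on both sides of 0.

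Member peaks of 1 list only were weaker than the shared ones in WT but not in LKO, by their medians and with no test. The 24 WT-only member peaks had a median strength at percentile 25.4 of the WT list, against percentile 64.2 for the 31 shared ones. Over all WT peaks these medians were at percentiles 29.8 and 72.2. The 8 LKO-only member peaks stood at percentile 54.9 of the LKO list, above percentile 48.2 of the shared ones, while over all LKO peaks the medians were at percentiles 24.0 and 57.7. The 4 strongest of the 8 were the Trib1 promoter peaks, an Akt2 peak and an Irs2 peak. Among WT peaks at or above the median strength of the list, 23 of 24 member peaks overlapped an LKO peak (95.8%), against 75.5% of all such WT peaks. Among LKO peaks at or above the median strength of their list it went the other way. There, 15 of 19 member peaks overlapped a WT peak (78.9%), against 92.3% of all such LKO peaks.

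The other motifs were searched as exact letters on both strands in the same windows. A single hexamer (AGGTCA), 2 copies of which form an IR1, was found in 38.2% of WT and 41.0% of LKO member peaks, against 40.3% and 41.3% of all peaks. A C/EBP motif (TTGCNNAA) was found in 18.2% and 20.5% of member peaks, against 16.5% and 15.2%. The motif TTCNNNGAA, which STAT proteins and BCL6 share, was found in 2 WT and 1 LKO member peaks (3.64% and 2.56%), against 6.56% and 6.39%. An HNF4 motif (CAAAGTC) was found in 10.9% and 12.8%, against 7.74% and 6.63%.

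A FOXA motif (TGTTTAC) was found in 6 of 55 WT member peaks (10.9%, 5.10 to 21.8%) and in 9 of 39 LKO member peaks (23.1%, 12.6 to 38.3%), against 6.71% and 6.75% of all peaks. FOXA proteins are pioneer factors of hepatocyte chromatin. Of the 8 LKO-only member peaks, 5 held it (62.5%), 1 each at Insr, Irs2, Akt2, Pik3r1 and Trib1, against 7.10% of all LKO-only peaks. Of the 31 shared pairs, 4 held it in the LKO window and 3 in the WT window. The split by shared peaks was made after the matches were seen. A match of these letters does not show that a protein binds there, or which protein would.

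Other genes of the insulin pathway were counted from a list of 42. Of these, 27 had a WT peak, 23 had an LKO peak and 13 had none. They held 74 WT peaks, 37 of them shared (50%), and 50 LKO peaks, 37 of them shared (74.0%), near the shares of all peaks. The median difference over their 37 pairs was 0.16, against 0.026 over all 9918 pairs. Of the 37, 5 pairs were lower and 11 higher in LKO without overlap, where the shares over all pairs were 25.2% and 29.8%. These counts were not tested. The genes with the most WT peaks were Ptpn1, a phosphatase that acts on the receptor, with 16 WT and 9 LKO peaks, and the receptor-binding adaptors Grb14 with 8 and 3 and Grb7 with 5 and 2. Foxk1, a forkhead factor, had 4 and 6, and Grb2, an adaptor, had 4 and 2.

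Replicates of the same genotype differed in the same direction at the member peaks as over the lists. In WT, replicate 2 was higher at 42 of 55 member peaks (76.4%) and at 84.7% of all WT peaks, with a median log2 difference of 0.46 (SD over peaks 0.59), against 0.57 over the list. In LKO, replicate 2 was higher at 8 of 39 member peaks (20.5%) and at 32.7% of all LKO peaks, with a median of -0.35 (SD 0.43), against -0.17 over the list.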

How the data were processed

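FXR ChIP-seq was measured in liver of WT (Bcl6 fl/fl) and LKO (Alb-cre, Bcl6 fl/fl) mice. Samples were grouped by their labels. Per the labels and the study's methods, the authors crosslinked liver with DSG and formaldehyde, used FXR antibody E4B8P, sequenced single-end reads and kept unique alignments to mm10. The submitters' processing notes name Bowtie 1.2 and HOMER 4.10. Headers in the files show that the authors pooled the 2 ChIP libraries of each genotype, called peaks with input as control and kept peaks above input. The deposited values per library are on a log2 scale and were taken as regularized log2 tags from 1 joint fit per table (2 ChIP libraries and 1 input), which shrinks low values together. The deposited peak score is a signal, pooled tags per 10000000. The deposited fold changes and p-values against input are the authors' own comparison and were not used.

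Total tags were 19022618 and 2883717 in WT ChIP, 21287263 and 22637613 in LKO ChIP, and 6964271 and 6935001 in the WT and LKO inputs. WT peaks were 211 bp and LKO peaks 205 bp long. Estimated tags were the log2 value turned to a linear scale and multiplied by the library total over the mean total of its table. Strength was the mean of the 2 ChIP log2 values, and percentiles were taken within a list. Wilson intervals cover counting error over peaks only, and peaks of 1 gene are not independent. Where the labels do not say whether replicates were separate animals, their spread may be technical. Distances to the TSS are those of the authors, and matched RefSeq of GRCm38.p6 within 2 bp for 60 of 94 member peaks. Genes, the pathway list, motifs and the rule for naming were chosen with earlier results of these data known. Named in full were the strongest WT peak of each gene, promoter peaks, LKO-only peaks, the strongest WT-only peak, and the 3 largest differences in each direction without overlap. Alternatives covered strength, tags, distance, input, overlap rule, list length, scale, replicates and motif limits. Python 3.11.15, numpy 2.4.6, pandas 2.3.3, pysam 0.24.0 and matplotlib 3.10.9 were used, with tests of the code on simulated data. Sequences were chosen as the IR1 peak with the fewest mismatches per gene and promoter peaks, and 3 of these are not reported here.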

Additional observations from a re-analysis of the deposited data

How the results depend on the processing

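The depth of WT replicate 2 limits statements on weak WT peaks. Of 97 recomputed values, 75 stayed within the limit set for them, 21 moved past it and 1 reversed. The limit was a factor of 1.5 for counts, and the interval or spread for other values. For values that moved past the limit or reversed, the cause was not tested unless the setting itself removes peaks. At or above the median strength, member peaks fell to 24 in WT and 19 in LKO. The WT share with an LKO peak was then 95.8% (75.5% of all such peaks). The LKO share with a WT peak was 78.9% (92.3% of all such peaks). Pathway genes with a peak of this strength were 17 in WT and 15 in LKO, and the pathway shares were 71.9% and 90.9%. With at least 10 estimated tags, 20 WT member peaks remained, the median difference of pairs was -0.36 (19 pairs, against -0.12 over all such pairs), and 2 pairs were higher in LKO, the latter count chosen after seeing the data. This limit removed member pairs through low WT values alone, which favours pairs with LKO lower. With lists of the same length the WT share was 86.7%, against 68.3% of all peaks. At most 1 mismatch left an IR1 in 5.45% of WT and 2.56% of LKO member peaks, against 2.46% and 3.55% of all peaks. The median difference was -0.50 on the deposited scale and -1.32 on the library-total scale, where the medians over all pairs were -0.30 and -1.12. The library-total scale shifts every pair down by the same amount, and on it the 3 largest rises were 0.095 at Irs2, 0.045 at Foxo3 and, reversed, -0.26 at Trib1. Leaving out 1 replicate at a time gave medians from -0.26 to -0.15. No paired analysis was possible because no result comes from a test, and over 2 libraries per genotype the mean of differences within replicate numbers equals the difference of the means by arithmetic.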
